A study of Homo sapiens with 4 samples.

Results

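The m6A peaks of 7 amino acid transporter genes were examined in H1975 cells, with SLC7A11 and its partner SLC3A2 first. H1975 is an established human lung adenocarcinoma cell line. H1975 cells that received lentivirus with either a control shRNA (NC-sh) or METTL3-sh for 48 h, grown in DMEM with high glucose, were profiled by MeRIP-seq. In this assay fragmented RNA is pulled down with an m6A antibody and sequenced beside an Input portion that was not pulled down. The 4 samples are 1 Input and 1 MeRIP library per condition, and 1 peak list was deposited for each MeRIP library. The control shRNA sequence is not given in the sources used here, nor whether the cells were a clone or a pool, and the knockdown of METTL3 in these libraries was not checked because Input values were not analysed here.

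The peaks were chosen by position. A peak belongs to a gene when its summit lies in that gene's window of the hg19 genome, and 11 of 21693 listed peaks did, 4 of 9441 in NC-sh and 7 of 12252 in METTL3-sh. The windows run over kb 139085 to 139164 of chromosome 4 for SLC7A11, 62623 to 62657 of chromosome 11 for SLC3A2, 87863 to 87904 of chromosome 16 for SLC7A5 and 47278 to 47292 of chromosome 19 for SLC1A5. SLC38A1 and SLC38A2 lie near each other on chromosome 12, at kb 46576 to 46664 and 46751 to 46767, and SLC7A1 at kb 30083 to 30170 of chromosome 13. Peaks were found for 4 of the 7 genes, which were SLC7A11, SLC7A5, SLC38A1 and SLC7A1, and no peak of either list lay in the windows of the other 3. Exons, introns and untranslated regions were not assigned, since no hg19 annotation was used here. All 9441 NC-sh and 12252 METTL3-sh peaks have a name that starts with H1299, whereas the labels give H1975. H1299 is a different line, which the study lists as lung adenocarcinoma. Whether a library was exchanged or mislabelled was not tested, and an exchange of the libraries would turn the direction of every difference given here, so the conditions are those of the labels. The design text mentions replicates, but the labels list 1 library of each kind, so differences between conditions could not be set against a replicate spread and no test between conditions was made.

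METTL3 carries the methyltransferase activity that places m6A on mRNA, and m6A reader proteins can direct marked transcripts to decay or translation. The transporters decide which amino acids a tumor cell can take up. SLC7A11 exchanges extracellular cystine for intracellular glutamate, and the cysteine made from that cystine feeds glutathione synthesis and protects lipids from peroxidation. It works as a heterodimer with SLC3A2, the heavy chain that brings SLC7A11, and likewise SLC7A5, to the plasma membrane. SLC7A5 imports large neutral amino acids such as leucine in exchange for glutamine, and SLC1A5, SLC38A1 and SLC38A2 carry glutamine and other small neutral amino acids. SLC7A1 imports arginine and lysine.

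The following sequences are those of the reagents that define the comparison and the gene at its center, as listed in the study's supplement, written 5′ to 3′ in lower case. The shRNA is the METTL3 sequence listed there, and the primers are the 2 sets used for m6A pulldown followed by qPCR on SLC7A11 mRNA. Where these primers lie relative to the peaks was not analysed here. No base is capitalised because no motif was searched in them.
METTL3 shRNA: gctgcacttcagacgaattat
SLC7A11 set 1 forward: ggcttcgtcatcactctg
SLC7A11 set 1 reverse: ctccttttgtttatcacc
SLC7A11 set 2 forward: gatagggcggcagcagca
SLC7A11 set 2 reverse: ctttcaactttggtgtct

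SLC7A11 had 2 peaks in METTL3-sh and none in NC-sh. The larger METTL3-sh peak was at chr4:139092960-139093286 and the smaller at chr4:139100200-139100400. The larger summit was covered by 137 MeRIP reads, with an exact 95% Poisson interval of 115 to 162 that covers counting error only. Fold enrichment, the scaled number of reads at the summit over the number expected locally, was 12.7 there, and the caller's −log10 q was 38.7. The smaller summit was covered by 45 reads (32.8 to 60.2), with a fold enrichment of 7.23 and a −log10 q of 9.81. The larger peak was an ordinary one within the METTL3-sh list, with more reads than 50.9% of its peaks and a higher fold enrichment than 65.9%. The smaller peak stood lower, above 19.8% of the list by reads and 21.4% by fold enrichment. Reads at the larger summit were 3.04 times those at the smaller, and the summits lay 7146 bp apart. The peaks were 327 and 201 bp long.

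The absence of SLC7A11 from the NC-sh list is not the removal of a numbered peak. Both lists lack peaks that had been numbered by the caller, 6004 from NC-sh and 8336 from METTL3-sh, and peak numbers follow the position on each chromosome. The NC-sh peaks on either side of SLC7A11 carry the consecutive numbers 11039 and 11040, and their summits are 5.85 Mb apart. No NC-sh peak was therefore numbered in that stretch. In METTL3-sh the same stretch held 4 peaks, the 2 in SLC7A11 and 2 more at lower coordinates, and the larger SLC7A11 peak had the most reads of the 4. Of the METTL3-sh peaks without an overlapping NC-sh peak that had NC-sh peaks on both sides, 30.2% lay between consecutive NC-sh numbers, so this placement is shared with many others. At the local expectation measured in METTL3-sh, which was 3.0 at the larger SLC7A11 peak, 70.3 NC-sh reads would give the fold enrichment of 6 that every listed peak exceeds. The expectation and the reads of NC-sh at SLC7A11 itself are not in its list, so a lower m6A signal in NC-sh, a lower amount of SLC7A11 RNA in NC-sh and an exchange of the libraries cannot be told apart from these lists. The study also measured METTL3, global m6A, and the m6A and decay of SLC7A11 mRNA by other assays in H1975 cells. Those measurements were not used here. A missing peak says that none was called at this depth, not that m6A was absent.

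SLC3A2, the heavy chain of the cystine transporter, had no peak in either library. Nor was a listed peak close to it. The nearest summit was 65.0 kb below the window in both libraries, and on the other side 829 kb in NC-sh and 830 kb in METTL3-sh. Between these neighbours 1 peak number was missing from the NC-sh list and 2 from the METTL3-sh list. Where in the stretch the removed peaks stood is not known. The cystine transporter was thus represented by its SLC7A11 subunit alone, and by the METTL3-sh list alone.

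**Figure D1:**
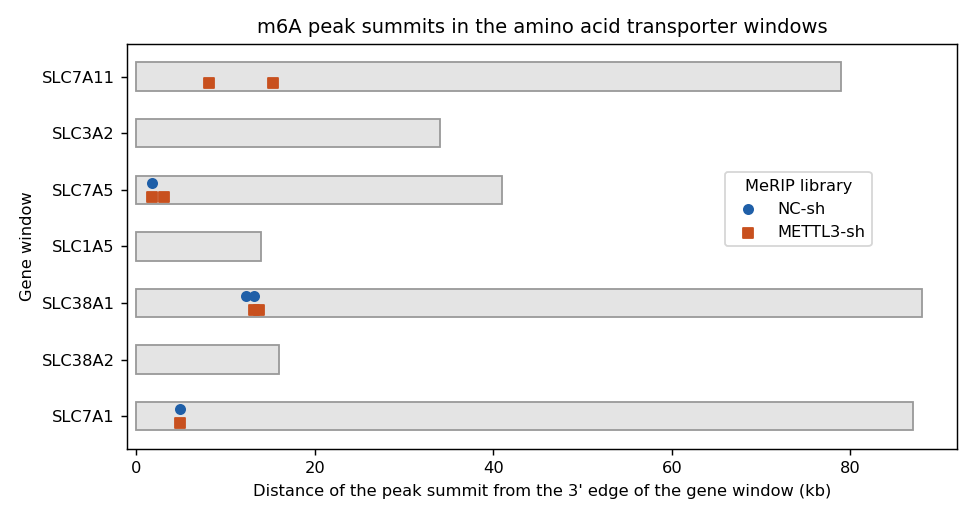
Position of every listed m6A peak summit in the 7 transporter windows. Gray bars are the windows, drawn from their 3′ edge (0 kb) to their 5′ edge, blue circles are NC-sh summits and orange squares METTL3-sh summits. All 11 summits lie within 15.3 kb of the 3′ edge, and the bars of SLC3A2, SLC1A5 and SLC38A2 are empty.

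All listed summits lay toward the 3′ end of their gene. The genes with peaks are read from the reverse strand, so that the 3′ end is the edge with the lower coordinate. The summits were 1.75 to 13.1 kb from that edge in NC-sh and 1.75 to 15.3 kb in METTL3-sh. As a share of the window they stood 4.26 to 14.9% of the way in for NC-sh and 4.26 to 19.3% for METTL3-sh. SLC7A5 was nearest to its edge and the smaller SLC7A11 peak the farthest. No summit was found near a 5′ edge, where transcription of these genes begins. The windows are given in whole kb and exceeded the gene lengths of RefSeq GRCh38.p14, by 1515 bp at SLC7A5 and by at most 2019 bp, at SLC38A1. These are therefore distances from the edge of a window and not from the end of a transcript. The plot of summits along the windows shows this placement.

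SLC7A5 carried the best covered peak of the set in both libraries. The NC-sh peak was at chr16:87864403-87865038 and the METTL3-sh peak at chr16:87864358-87865032, with summits at the same base. It was covered by 6994 reads in NC-sh (6831 to 7160) and by 7970 in METTL3-sh (7796 to 8147). These were the 37th and 29th highest read numbers of the lists. Reads were thus higher in METTL3-sh, by a ratio of 1.14 (exact 95% interval 1.10 to 1.18, counting error of these 2 libraries). Fold enrichment had the opposite order, 18.5 for NC-sh against 16.1 for METTL3-sh. The local expectation, by which fold enrichment divides, was 123 in NC-sh and 180 under METTL3-sh. Among the 6863 exclusive pairs of the series, meaning an NC-sh and a METTL3-sh peak with no further overlap, 18.1% had this combination of a lower fold enrichment and more reads in METTL3-sh. Reads are not scaled for depth. The log2 read ratio of SLC7A5, 0.19, exceeded that of 54.9% of these pairs, whose median was 0.13.

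A further SLC7A5 peak was listed in METTL3-sh and not in NC-sh, at chr16:87865924-87866511. Its summit lay 1374 bp from the larger one, on the 5′ side, and 2749 reads covered it (2647 to 2854). Its fold enrichment of 6.67 was close to the limit of 6, lower than that of most peaks in the list and above 12.5% of them. The local expectation at this place was high, at 149, above 99.5% of METTL3-sh peaks. In NC-sh 1 peak number was missing between the SLC7A5 peak and the next listed peak, so an NC-sh peak that was removed may have stood here. At the METTL3-sh expectation, 2747 reads would have been needed in NC-sh to reach a fold enrichment of 6. The NC-sh expectation at this place is not in its list. At the larger SLC7A5 peak it was lower in NC-sh, 123 against 180, so the number needed may differ.

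**Figure D2:**
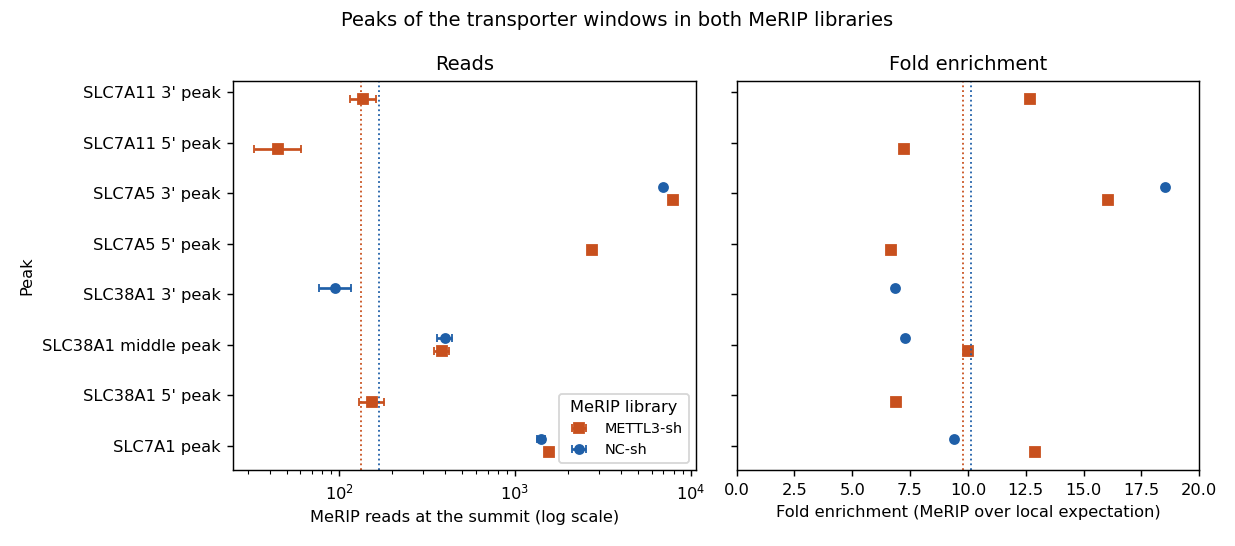
MeRIP reads at the summit (left, log scale, bars are exact 95% Poisson intervals of counting error) and fold enrichment (right) of the 11 transporter peaks, 1 row per place, with NC-sh as blue circles and METTL3-sh as orange squares. Dotted lines mark the median of each whole list. SLC7A5 has the most reads in both libraries, and the SLC7A11 rows have no NC-sh point.

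SLC7A1, the arginine and lysine importer, had 1 peak in each library at nearly the same place. The peaks were at chr13:30087709-30088423 in NC-sh and chr13:30087695-30088436 in METTL3-sh, with summits 18 bp apart. Reads were 1407 in NC-sh (1334 to 1482) and 1556 in METTL3-sh (1480 to 1635), a ratio of 1.11 (1.03 to 1.19). This ratio, not scaled for depth, exceeded that of 51.2% of the exclusive pairs. Fold enrichment was 9.42 and 12.9, 1.37 times higher in METTL3-sh, a ratio for which no interval was computed. The local expectation was lower in METTL3-sh, at 43.0 against 48.0. Among the exclusive pairs of the series, fold enrichment was at least 1.5 times higher in METTL3-sh in 22.9% and at least 1.5 times lower in 12.8%, and neither SLC7A1 nor SLC7A5 passed that size.

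SLC38A1, a sodium-coupled carrier of glutamine and alanine, had 2 peaks in each library, but they did not match in extent. In NC-sh they were at chr12:46587680-46588667 with 95 reads (76.9 to 116) and at chr12:46588950-46589823 with 398 reads (360 to 439). In METTL3-sh they were at chr12:46588944-46589376 with 382 reads (345 to 422) and at chr12:46589562-46590082 with 153 reads (130 to 179). The NC-sh peak with 398 reads overlapped both METTL3-sh peaks, so that it forms no exclusive pair. Its summit lay 4 bp from the larger METTL3-sh summit. At that summit the reads, not scaled for depth, had a ratio of 0.960 (0.832 to 1.11), an interval that includes equal reads. Fold enrichment was 9.99 in METTL3-sh and 7.29 in NC-sh, without an interval. The local expectation was 13 in METTL3-sh and 17.0 in NC-sh. The 95-read NC-sh peak had a fold enrichment of 6.86 and no METTL3-sh counterpart, and 1 METTL3-sh number was missing between the listed METTL3-sh peaks on either side of it.

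No peak was listed for SLC1A5 or SLC38A2, which also carry glutamine. The nearest summits to the SLC1A5 window were 17.2 kb away in NC-sh and 18.3 kb in METTL3-sh, and those nearest to SLC38A2 were 15.6 and 14.9 kb away. In the gaps around SLC1A5 1 NC-sh and 2 METTL3-sh numbers were missing, and around SLC38A2 3 and 5. Removed peaks could have stood inside these windows, in contrast to SLC7A11 in NC-sh.

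**Figure D3:**
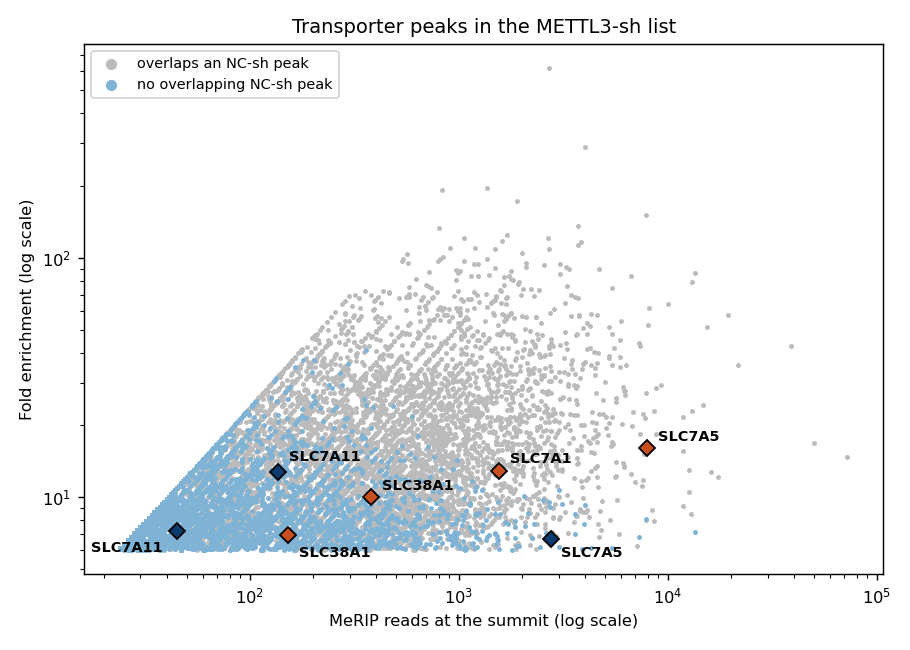
Reads at the summit against fold enrichment, both on log scales, for all 12252 METTL3-sh peaks. Gray points overlap an NC-sh peak and light blue points do not. The 7 transporter peaks are diamonds, orange where an NC-sh peak overlaps and dark blue where none does. The dark blue diamonds are the 2 SLC7A11 peaks and the second SLC7A5 peak.

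The counts of unshared transporter peaks were near those of the whole lists. Of the 7 METTL3-sh peaks, 3 lacked an NC-sh counterpart, beside 41.4% of that whole list. Of the 4 NC-sh peaks, 1 lacked a counterpart, beside 23.8%. Within the 5067 METTL3-sh peaks without an NC-sh peak, which had a median of 54 reads and a median fold enrichment of 7.73, the larger SLC7A11 peak stood above 78.9% by reads and above 91.0% by fold enrichment. The smaller one was above 40.7% and 38.2%. Of all METTL3-sh peaks with at least 137 reads, 17.7% had no NC-sh peak. The 2749 reads of the second SLC7A5 peak exceeded those of 99.7% of the unshared peaks, and its fold enrichment those of 22.8%.

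In order of reads, the METTL3-sh peaks ran from SLC7A5 with 7970 and 2749 reads through SLC7A1 and SLC38A1 to SLC7A11. Neighbours in this order had separate counting intervals, except the smaller SLC38A1 peak and the larger SLC7A11 peak, whose intervals of 130 to 179 and 115 to 162 overlapped. In fold enrichment the larger SLC7A11 peak stood at 12.7, behind SLC7A5 at 16.1 and SLC7A1 at 12.9. No interval was computed for fold enrichment, so the order of 12.7 and 12.9 is not established. Reads at a summit depend on the amount of each RNA, whereas fold enrichment divides by the local expectation, which was 3.0 at the larger SLC7A11 peak and 180 at SLC7A5. Over all member peaks the median was 902.5 reads in NC-sh, beside 169 for the list, and 382 in METTL3-sh, beside 132. Their median fold enrichment was 8.36 for NC-sh, beside 10.2 for the list, and 9.99 for METTL3-sh, beside 9.79. These medians rest on 4 and 7 peaks, of which several come from the same gene.

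**Figure D4:**
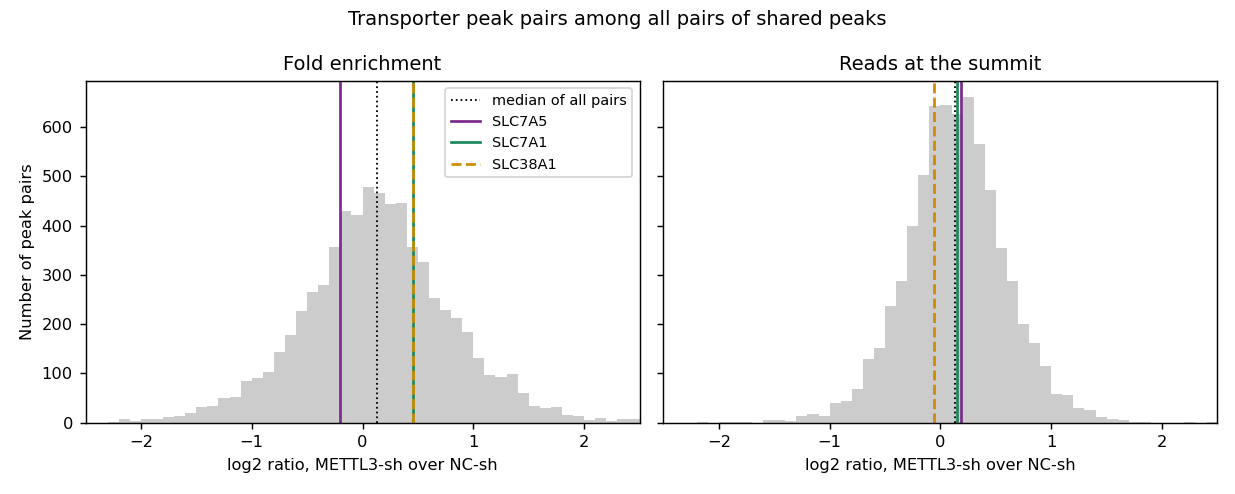
Distribution of the log2 ratio (METTL3-sh to NC-sh) in all 6863 exclusive peak pairs for fold enrichment (left) and reads at the summit (right). Solid lines mark the SLC7A5 and SLC7A1 pairs, the dashed line the SLC38A1 peaks with nearly equal summits, and the dotted line the median of all pairs. In fold enrichment SLC7A5 lies left of the median and the others right, and all 3 stand near the center in reads.

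The exclusive pairs of SLC7A5 and SLC7A1 went in opposite directions in fold enrichment, with log2 ratios (METTL3-sh to NC-sh) of -0.20 and 0.45. The SLC38A1 peaks with nearly equal summits had a log2 ratio of 0.45. Over the 6863 pairs the median log2 ratio was 0.13, with quartiles of -0.27 and 0.54, and fold enrichment was lower after METTL3-sh in 41.1%. All 3 transporter values thus lay between the quartiles. In log2 reads the values were 0.19 for SLC7A5, 0.15 for SLC7A1 and -0.06 for SLC38A1, beside a median of 0.13 and quartiles of -0.14 and 0.41. In log2 local expectation they were 0.55, -0.16 and -0.39, beside a median of 0.20 and quartiles of -0.26 and 0.65. This expectation is the caller's local background, recovered here from pileup and fold enrichment. It adds no measurement beyond fold enrichment and reads, since fold enrichment already divides by it.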

How the data were processed

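The submitters' processing notes name hg19, bcl2fastq, the aligner TopHat2 2.0.13 and the peak caller MACS2 2.1.0.20151222, without parameters, and the lists have the columns of MACS2. Each MeRIP library has its own list. The pileup deposited by the authors is a signal, the reads at the summit times 1 factor per library. The fold enrichment deposited by the authors is a ratio, with a pseudocount of 1 on pileup and expectation. The −log10 p and q values deposited by the authors are the caller's own. Reads were computed as pileup over its step (0.327 in NC-sh, 0.364 in METTL3-sh) and the local expectation from pileup and fold enrichment. A Poisson −log10 p computed from both differed by less than 0.02 from that in the list for 89.3% (NC-sh) and 86.3% (METTL3-sh) of peaks. At least 25 and 24 reads covered each summit, and total depth is unknown.

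Peaks were assigned by summit and matched by an overlap of at least 1 bp. Ratios used pairs that overlapped only each other, except at SLC38A1, where the peaks with summits 4 bp apart were compared. Intervals were computed for reads and their ratios only, not for fold enrichment or the local expectation. Gene windows exceeded the RefSeq GRCh38.p14 gene lengths by 288 to 2019 bp. Strands are those of RefSeq, and for SLC7A11 textbook knowledge. All 7 genes are named, with every peak. Of the other amino acid transporters, 24 were listed for counting if an hg19 annotation was at hand, and they were not analysed here. The genes and lists were chosen with earlier results of these data known. Python 3.11.15, numpy 2.4.6, pandas 2.3.3, scipy 1.17.1 and matplotlib 3.10.9 were used, and matching was tested on simulated data.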

Additional observations from a re-analysis of the deposited data

How the results depend on the processing

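Transporter peaks numbered 4 for NC-sh and 7 for METTL3-sh also when any overlap with the window counted and when windows were widened by 5 kb. With a fold enrichment of at least 12, 1 NC-sh and 3 METTL3-sh peaks remained, 1 of each was shared, and the median log2 ratio of fold enrichment turned from 0.12 to -0.20 because SLC7A5 was the remaining pair. With −log10 q of at least 36.6, or with summits within 100 bp, SLC38A1 joined the pairs and the median was 0.45. When each peak had to cover at least 50% of the other, 2 METTL3-sh peaks were shared in place of 4.

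The direction of SLC7A5 depends on the measure. Its log2 ratio was -0.20 in fold enrichment, 0.34 in pileup, 0.24 in −log10 q and 0.19 in reads at the summit. For SLC7A1 these were 0.45, 0.30, 0.58 and 0.15. In each of the 3 other measures 0 pairs were lower in METTL3-sh, in place of 1, and the median was 0.32 in pileup and 0.41 in −log10 q. These measures are not separate evidence, because pileup is the reads times 1 factor per library and −log10 q also rests on pileup. Less the median of all pairs, the log2 ratios were -0.33 for SLC7A5 and 0.32 for SLC7A1, with a median of -0.0036. The cause was not tested for any of these differences. No paired analysis was possible because there was 1 MeRIP library per condition. The SLC7A11 peaks rest on 137 and 45 reads, beside a median of 132 in the METTL3-sh list.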
